A study of Mus musculus with 4 samples.

Results

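The miR-200 family is a set of microRNAs (miRNAs) made from 5 hairpins, miR-200a, miR-200b, miR-429, miR-200c and miR-141. The members described here were the 10 names of the deposited miRNA count table that are the 5p or 3p arm of these hairpins, out of 1900 names in all. Of the 10, 8 passed the filter on low counts and were tested, and miR-200c-5p and miR-429-5p did not.

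The libraries held small RNA recovered by immunoprecipitation of Argonaute2 (AGO2), the protein that carries mature miRNAs, from freshly dissected olfactory bulb of C57BL/6 mice. The GFP-AGO2 group (2 libraries, replicates 1 and 3) came from mice that received LV.PGK.GFP-AGO2. By its name this is a vector with the PGK promoter, which is active in many cell types, in front of AGO2 joined to green fluorescent protein. The Control group (2 libraries, replicates 1 and 3) came from sham-injected mice without a vector, and both groups were collected 8 weeks after injection. The series describes the material as newborn neurons, whereas the sample labels give whole bulb tissue, and the sources used here give neither the age of the mice, nor the antibody or the injection site. What the Control immunoprecipitate captured, the mouse's own AGO2 or background, is therefore not known, and every difference below is relative to it. No label states whether replicates were different mice, so a p-value here speaks only of the spread among these libraries, part or all of which may be technical. Depth was 673916 to 1006861 miRNA counts for the Control libraries and 1858354 to 2809758 for the GFP-AGO2 libraries.

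As background, a miRNA guides AGO2 to messenger RNAs by pairing through its seed, bases 2 to 8, and miRNAs with the same seed have largely the same targets. The miR-200 family is known for keeping epithelial cells epithelial, through repression of the transcription factors Zeb1 and Zeb2. In the nervous system it is known from the olfactory epithelium and from the differentiation of olfactory and forebrain neurons. Each hairpin is cut into a 5p and a 3p arm, and in this family the 3p arm is the usual guide strand.

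The mature sequences are shown because the family is defined by them. The 10 members all matched RefSeq miRNA entries (GRCm38.p6) at the positions of the count table, and the seed is in capitals. The first 3 of the 3p arms have the seed AAUACUG and the last 2 have AACACUG.
mmu-miR-200b-3p: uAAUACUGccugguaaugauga
mmu-miR-200c-3p: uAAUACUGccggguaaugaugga
mmu-miR-429-3p: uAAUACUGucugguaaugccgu
mmu-miR-200a-3p: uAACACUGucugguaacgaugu
mmu-miR-141-3p: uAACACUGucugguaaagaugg

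Within the seed the groups differ by a single base, C4U from miR-200a-3p to miR-200b-3p, with positions counted from 1 at the 5′ end of the mature miRNA. Outside the seed miR-200a-3p and miR-141-3p differ by C17A and U22G. MiR-200b-3p and miR-200c-3p differ by U11G and A22G over the 22 positions they share. Among 1679 mature mouse names in the RefSeq table, no name outside the family had either seed. The close likeness of these pairs means that a shortened or misread read can be placed on the wrong member. How often that happened was not tested.

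The 5p arms are the partner strands and vary more, also in the seed. The seed AUCUUAC is common to miR-200a-5p and miR-200b-5p, while each of the other three has a seed of its own.
mmu-miR-200a-5p: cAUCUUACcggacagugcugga
mmu-miR-200b-5p: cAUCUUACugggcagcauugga
mmu-miR-141-5p: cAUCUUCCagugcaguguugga
mmu-miR-200c-5p: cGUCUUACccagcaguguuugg
mmu-miR-429-5p: gUCUUACCagacaugguuaga

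The hairpins lie in 2 genomic clusters, both on the minus strand (mm10). On chromosome 4, Mir200b (156055681 to 156055750), Mir200a (156054896 to 156054985) and Mir429 (156053905 to 156053987) follow each other with 695 and 908 bases between them. In the GENCODE annotation all of these are within introns of Ttll10, a gene of the tubulin tyrosine ligase-like family, and Mir429 also overlaps an exon of the noncoding transcript Gm13648. On chromosome 6, Mir200c (124718322 to 124718390) and Mir141 (124717914 to 124717985) are 336 bases apart, inside an intron of the noncoding transcript Gm15884, between the protein-coding genes Phb2 and Ptpn6. Mir141 also overlaps an exon of the transcript model Gm29008. None of the 10 members had a second position or overlapped another name of the table. The hairpins of miR-200b and miR-200c are printed to show the position of the arms (capitals), since the 5p arm of the former was the most counted of the 5 and that of the latter was barely counted.
Mir200b: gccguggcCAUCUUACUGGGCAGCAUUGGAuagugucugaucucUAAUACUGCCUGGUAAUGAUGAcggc
Mir200c: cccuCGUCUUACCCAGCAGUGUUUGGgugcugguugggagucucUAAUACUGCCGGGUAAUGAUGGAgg

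Setting GFP-AGO2 against Control asks which miRNAs made up a different part of the AGO2 immunoprecipitate after injection of the vector. Of the 8 tested arms, 7 met the filter on low counts in both groups, and these were 6.23-fold to 8.05-fold lower in GFP-AGO2. They include arms of both clusters, both 3p seed groups and both strands of 2 hairpins. In edgeR's quasi-likelihood test over 457 names all 7 fell, at adjusted p-values of 0.00267 to 0.00778. The remaining arm, miR-141-5p, met the filter only through Control, the group where it was high, and is given below with its values. Of all tested names 34.4% were called in either direction and 17.1% were called lower. The median log2 fold change was -2.76 over the 7 arms and -0.01 over all names tested. In such bulk material, fewer cells of a type and less of the RNA per cell cannot be told apart. Nor can either be told from a difference in what the immunoprecipitates captured, since the Control capture is not known.

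As a share of all miRNA counts, the 10 arms together took 11.7% of Control replicate 1 (11.66 to 11.78, 95% exact interval). For Control replicate 3 this was 11.5% (11.42 to 11.57). GFP-AGO2 replicate 1 had 1.34% (1.33 to 1.35), and replicate 3 had 2.69% (2.67 to 2.72). The groups did not overlap, and the GFP-AGO2 libraries lay further from each other, in proportion, than the Control libraries did. The mean share was 11.6% ± 0.160 for Control against 2.02% ± 0.957 for GFP-AGO2 (SD, n = 2 each). The gap of -9.59 percentage points was larger than either SD. It was -14.4 points with names of several genomic positions left out of the total. An exact two-sided permutation test gave its smallest possible value with 2 libraries against 2, p = 0.333.

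**Figure D1:**
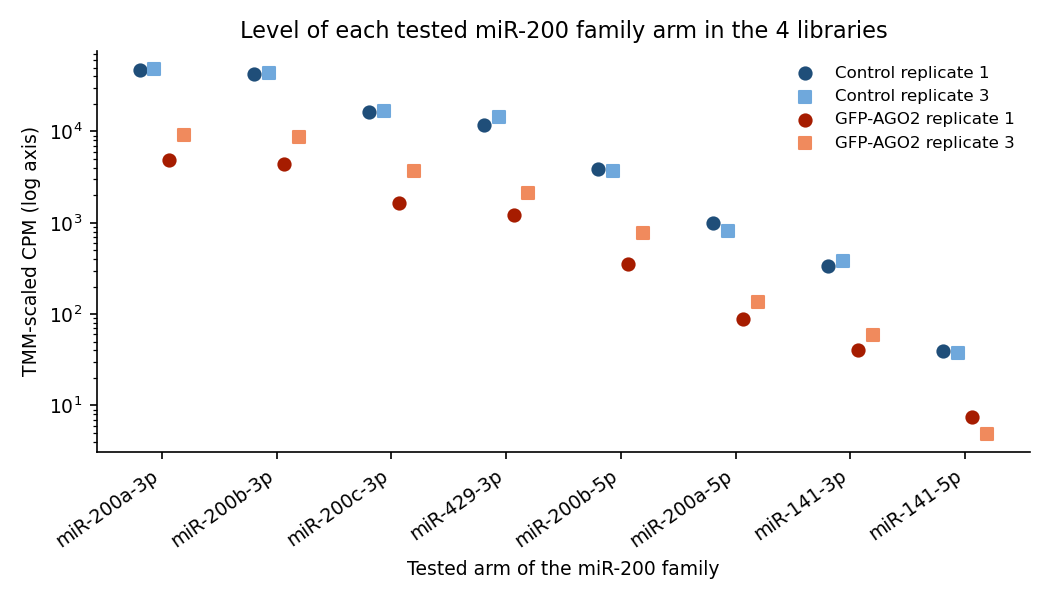
Level (CPM after TMM scaling, log axis) of the 8 tested arms, a point for each library (Control replicates blue, GFP-AGO2 replicates red and orange). In each arm both GFP-AGO2 points lie below both Control points, as they did for 35.2% of the 457 tested names. MiR-141-5p met the filter on low counts only through Control. The order of the arms from left to right is the same in the 4 libraries.

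The most abundant member was miR-200a-3p, 1 of the 2 arms with the seed AACACUG. Its TMM-scaled CPM was 46773 and 48231 in Control replicates 1 and 3. In GFP-AGO2 it was 4843 in replicate 1 and 9165 in replicate 3, and the replicates are given in this order throughout. Both Control libraries were far above both GFP-AGO2 libraries, and the nearest pair was 5.10-fold apart. The log2 fold change was -2.76 (SE 0.32, edgeR adjusted p = 0.00519). By counts miR-200a-3p held rank 6 of all names in both Control libraries, and rank 32 and 20 in GFP-AGO2 replicates 1 and 3.

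MiR-200b-3p, from the neighbouring hairpin and with the other seed, stood just below it in every library. Its CPM was 42430 and 43542 in Control and 4452 and 8592 in GFP-AGO2. These top members had separate ranges in Control and overlapping ones in GFP-AGO2. The groups again did not overlap, with a log2 fold change of -2.72 (SE 0.33, edgeR adjusted p = 0.00527). This pair alone made up 8.39% ± 0.194 of the Control counts and 1.47% ± 0.683 of the GFP-AGO2 counts (SD, n = 2 each).

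MiR-200c-3p is the main product of the chromosome 6 cluster and has the seed of miR-200b-3p. It had 16298 and 16789 CPM in Control and 1646 and 3668 in GFP-AGO2. Of the 8 arms it had the smallest gap between the nearest libraries, 4.44-fold, and its log2 fold change was -2.64 (SE 0.39). MiR-429-3p, the last product of the chromosome 4 cluster, had 11851 and 14264 CPM in Control and 1229 and 2132 in GFP-AGO2. It had a log2 fold change of -2.96 (SE 0.30). The CPM ranges of miR-200c-3p and miR-429-3p were separate in Control and overlapped in GFP-AGO2, although miR-200c-3p was the higher of the pair within each library. All other neighbours in the order of levels had separate ranges in both groups.

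MiR-141-3p shares the seed of miR-200a-3p but was the rarest 3p arm. It had 335 and 384 CPM in Control and 40.01 and 58.8 in GFP-AGO2, on 119 to 323 counts. Both groups were clearly apart, with a log2 fold change of -2.87 (SE 0.25, edgeR adjusted p = 0.00267). Its hairpin, Mir141, overlaps Gm29008, which is on the same strand.

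Among the 5p arms, miR-200b-5p was the most abundant, at 3829 and 3679 CPM in Control. GFP-AGO2 had 354 and 780 CPM, for a log2 fold change of -2.73 (SE 0.39). MiR-200a-5p had 984 and 813 CPM in Control and 87.4 and 136.8 in GFP-AGO2. It showed the lowest log2 fold change of the 8 arms, -3.01 (SE 0.27). MiR-141-5p was seen 38 and 23 times in Control and 22 and 10 times in GFP-AGO2, which is 39.5 and 37.9 against 7.40 and 4.90 CPM. Without TMM scaling it had 37.7 and 34.1 CPM in Control but 5.38 in GFP-AGO2 replicate 3, under the filter's minimum of 6.98, so that Control alone admitted it to the test. Its log2 fold change was -2.62 (SE 0.44, edgeR adjusted p = 0.00918). This call was lost without Control replicate 1, at a log2 fold change of -2.54 and an edgeR adjusted p = 0.0508. The partner strands of miR-200c and miR-429 were barely counted. MiR-200c-5p had 2 counts in Control replicate 1, 0 in Control replicate 3, 0 in GFP-AGO2 replicate 1 and 2 in GFP-AGO2 replicate 3. MiR-429-5p had 1 count in Control replicate 1 and 0 in the other three libraries. A count of 0 allows a level of up to 4.95 CPM in Control replicate 3, and up to 1.01 and 1.47 CPM in GFP-AGO2 replicates 1 and 3. No difference between groups was detectable for these arms at this depth.

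The unscaled counts were lower too. For the 7 arms that met the filter in both groups, and for miR-141-5p, both GFP-AGO2 libraries had fewer counts than both Control libraries, although the GFP-AGO2 libraries were the deeper ones. MiR-200a-3p had 45040 and 29245 counts in Control and 14406 and 18696 in GFP-AGO2. In unscaled counts 9.41% of the tested names were separated in this direction, and in scaled CPM 35.2% were.

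**Figure D2:**
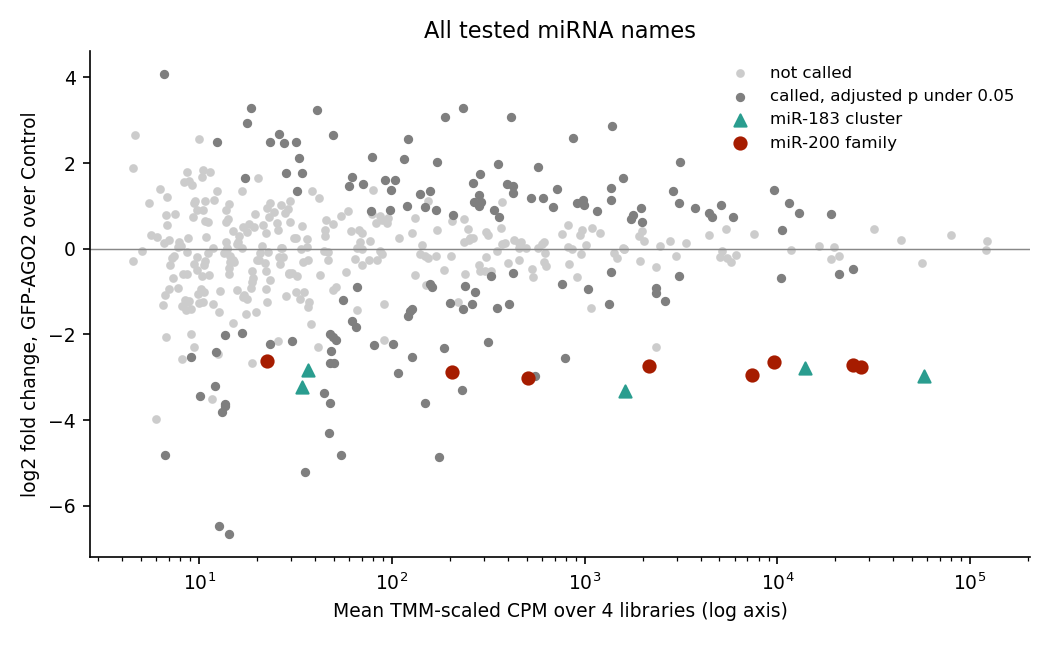
Log2 fold change of GFP-AGO2 over Control against the mean CPM of each of the 457 tested names (log axis); grey points are other names, dark where called by edgeR. The 8 miR-200 arms (red circles) lie between -3.01 and -2.62, from the rarest of them, miR-141-5p, to the most abundant, miR-200a-3p. The 7 arms that met the filter in both groups lie between -3.01 and -2.64. The 5 tested arms of the miR-183 cluster (green triangles) have a median of -2.97. Control alone admitted miR-141-5p and, in the miR-183 cluster, miR-182-3p to the test.

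The 8 log2 fold changes spanned 0.39, from -3.01 to -2.62, which is less than the SE of 3 of them. The SEs were 0.25 to 0.44. The upper end and the largest SE were those of miR-141-5p, which Control alone admitted to the test. Over the 7 arms that met the filter in both groups the span was 0.371. This is less than the SE of miR-200b-5p and of miR-200c-3p (0.394 each). An SE here belongs to the group difference of a single arm. It does not measure how far arms counted in the same libraries differ from each other, for which ratios within a library are given below. By log2 fold change the 8 arms held ranks 21 to 36 from the lowest among the 457 tested names. Some names outside the family thus had lower values than any of its arms.

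The spread between libraries had a common direction too. In GFP-AGO2 replicate 3, 7 of the 8 tested arms were above replicate 1, by 1.47-fold to 2.23-fold, and miR-141-5p was below it, at 0.663 of its level. Over all 457 tested names the median of this ratio was 1.06, with quartiles of 0.889 and 1.39. Between the Control libraries the same ratio was 0.826 to 1.20 over the 8 arms. Without GFP-AGO2 replicate 3, miR-200c-3p and miR-200b-5p had log2 fold changes of -3.33 and -3.41, over 1.5 times the fold change found with all libraries. Such a fit takes its spread from the Control libraries alone.

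Although the family as a whole was much lower in GFP-AGO2, its make-up was nearly the same in the 4 libraries. MiR-200a-3p took 38.2% and 37.8% of the family's counts in Control and 38.3% and 37.3% in GFP-AGO2. MiR-200b-3p took 34.6% and 34.1% in Control and 35.17% and 35.01% in GFP-AGO2. MiR-200c-3p took 13.3% and 13.1% against 13.01% and 14.9%, and miR-429-3p 9.67% and 11.2% against 9.71% and 8.69%. The largest difference between group means in these 4 arms was -1.22 percentage points, for miR-429-3p, while the family's share of all counts was 5.75-fold lower. The order of the 8 tested arms by counts was also the same in all 4 libraries.

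**Figure D3:**
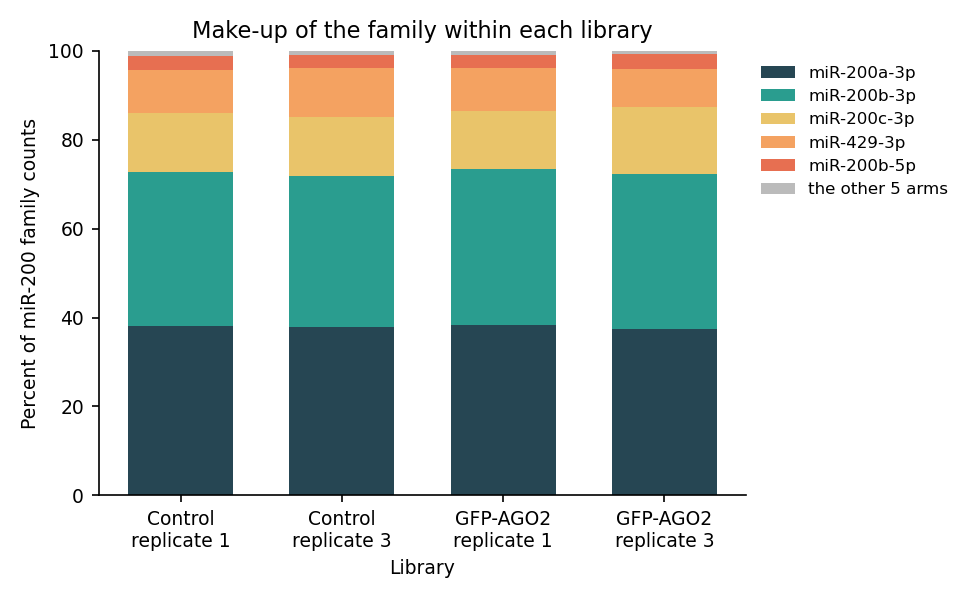
Percent of the miR-200 family's counts that each arm took, a bar for each of the 4 libraries, from 0 to 100%. The segments of miR-200a-3p (37.3% to 38.3%) and miR-200b-3p (34.1% to 35.2%) are nearly level across Control and GFP-AGO2.

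Ratios within a library need no scaling, and they were used to ask whether parts of the family moved apart. The chromosome 4 cluster had 6.35 and 6.42 times the counts of the chromosome 6 cluster in Control, and 6.47 and 5.57 times in GFP-AGO2. GFP-AGO2 replicate 3 was the low library and replicate 1 the high one, so the groups overlapped. The log2 ratio differed by -0.09 between groups, within the SD of 0.15 in GFP-AGO2 (n = 2; exact two-sided permutation p = 1). Its sign rested on GFP-AGO2 replicate 3, without which the difference was 0.02. On its own, the chromosome 4 cluster took 10.03% ± 0.127 of Control counts and 1.72% ± 0.794 of GFP-AGO2 counts. The chromosome 6 cluster took 1.57% ± 0.0327 and 0.295% ± 0.163 (SD, n = 2 each).

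The seed groups likewise kept a nearly constant ratio. The 3p arms with the seed AAUACUG had 1.498 and 1.534 times the counts of those with AACACUG in Control, and 1.501 and 1.560 times in GFP-AGO2. The difference in log2 ratio was 0.01, below the SD of 0.02 in Control and of 0.04 in GFP-AGO2 (n = 2; exact two-sided permutation p = 0.667). It was -0.0040 without Control replicate 1 and -0.02 without GFP-AGO2 replicate 3. With 2 libraries a group these exact permutation tests cannot go below p = 0.333, so they do not show that the ratios were equal.

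Single pairs within a cluster were compared too. From the neighbouring chromosome 4 hairpins, miR-200a-3p had 1.10 and 1.11 times the counts of miR-200b-3p in Control and 1.09 and 1.07 times in GFP-AGO2. MiR-429-3p, from the same stretch, had 27.9% and 32.8% of the counts of miR-200b-3p in Control and 27.6% and 24.8% in GFP-AGO2. In both of these pairs the GFP-AGO2 libraries lay below the Control libraries by a small margin, which was not tested. On chromosome 6, miR-141-3p had only 2.06% and 2.29% of the counts of its neighbour miR-200c-3p in Control and 2.43% and 1.60% in GFP-AGO2. In each library the products of neighbouring hairpins were thus near each other in counts for miR-200a-3p and miR-200b-3p, and far apart for miR-141-3p and miR-200c-3p. Of these 3 ratios the last varied most between the GFP-AGO2 libraries. These values compare counts of mature RNAs of 22 or 23 bases, with no correction for how well each sequence is captured in library preparation.

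The arms of a hairpin were compared where both were counted in every library, which held for miR-200a, miR-200b and miR-141. MiR-200a-3p had 47.5 and 59.3 counts for each count of miR-200a-5p in Control, and 55.4 and 67.0 in GFP-AGO2. For miR-200b the 3p to 5p ratio was 11.1 and 11.8 in Control and 12.6 and 11.01 in GFP-AGO2. For miR-141 it was 8.50 and 10.1 in Control and 5.41 and 12 in GFP-AGO2, where the 5p arm had only 22 and 10 counts. The groups overlapped for each of the 3 hairpins. The log2 differences were 0.20, 0.04 and -0.20, with exact two-sided permutation p-values of 0.667, 1 and 1, all 1 when adjusted over the 3 hairpins by the Benjamini-Hochberg method. For miR-200b and miR-141 the sign of the difference changed when a single library was left out. It was -0.01 without Control replicate 1 and -0.06 without GFP-AGO2 replicate 1 for miR-200b, and 0.37 without GFP-AGO2 replicate 1 for miR-141. Without Control replicate 1 the difference for miR-200a was 0.04, and without Control replicate 3 it was 0.36. Without GFP-AGO2 replicates 1 and 3 it was 0.34 and 0.06. In the hairpins of miR-200c and miR-429 the 3p arms had 3656 to 15694 counts in a library against 0 to 2 for their 5p arms, so almost every count came from the 3p strand printed above.

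**Figure D4:**
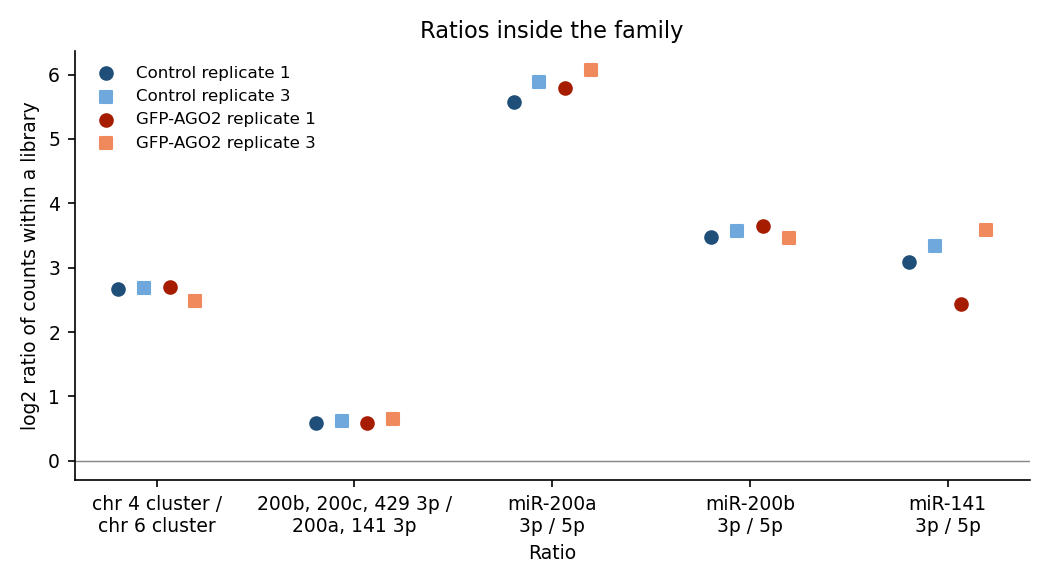
Log2 ratios of counts within each library: the chromosome 4 over the chromosome 6 cluster, the 2 seed groups, and the 3p over the 5p arm of 3 hairpins; blue points are Control, red and orange points GFP-AGO2. In all 5 ratios the points of the groups overlap.

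The names most like the family were found by the distance between centred log2 CPM profiles over the 4 libraries, against the summed family. The nearest 5 outside it were miR-182-5p, miR-375-3p, miR-183-5p, miR-6538 and miR-22-5p, at distances of 0.060, 0.208, 0.217, 0.284 and 0.305. The tested arms of the family itself lay at 0.028 to 0.381, apart from miR-141-5p at 1.09. The summed profile is made of these arms, with miR-200a-3p and miR-200b-3p as its largest parts. Distances of the abundant arms are thus small by construction and give no scale for names outside the family. MiR-182-5p and miR-183-5p belong to the sensory miR-183 cluster of chromosome 6, known from the olfactory epithelium, retina and inner ear. MiR-182-5p had 23891 and 24954 CPM in Control and 2348 and 4739 in GFP-AGO2. MiR-375-3p, known from endocrine and epithelial cells, had 1311 and 1400 CPM in Control and 159 and 302 in GFP-AGO2. In each of the 5 GFP-AGO2 replicate 3 was the higher library of its group, as it was for the family. The 5 were chosen by their profile over these same libraries, so this shared order follows from the choice. With 4 libraries in 2 groups the likeness of the profiles otherwise mostly restates the difference between groups.

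Other miRNAs known from particular cell types moved unequally in the same libraries. Of the 6 arms of the miR-183 cluster 5 were tested and all 5 fell, with a median log2 fold change of -2.97. Of all tested names 17.1% fell. MiR-182-3p had 78.9 and 44.5 CPM in Control and 2.35 and 11.3 in GFP-AGO2. Its level in GFP-AGO2 replicate 1 was under the filter's minimum, so that Control alone admitted it to the test. The cluster's share was 11.9% to 12.2% for Control and 1.27% to 2.41% for GFP-AGO2. Without Control replicate 1, 4 of the 5 were called. Of 17 names from other epithelial miRNAs (miR-203, miR-205, miR-31, miR-375, miR-34b, miR-34c and the miR-449 group) 5 were tested, 2 fell and none rose, with a median of -1.29. Their share of counts was 0.157% to 0.168% for Control and 0.0317% to 0.0611% for GFP-AGO2. MiR-203-3p of stratified epithelia, the next in abundance after miR-375-3p, had a log2 fold change of -0.84 (SE 0.31, edgeR adjusted p = 0.0945). It was called without GFP-AGO2 replicate 3 (-1.21). Without Control replicate 1, 1 of the 5 was called lower, and without GFP-AGO2 replicate 3, 4 were. The median was then -0.87 and -2.15, and it was -0.73 without GFP-AGO2 replicate 1.

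Of 19 names of vessel, blood and immune miRNAs 8 were tested, 4 fell and none rose, with a median of -2.34. Of all tested names 17.1% fell. Among the 4, miR-451a had 20.8 and 29.7 CPM in Control and 0.336 and 3.92 in GFP-AGO2. MiR-145a-3p had 75.8 and 89.1 CPM in Control and 6.39 and 20.1 in GFP-AGO2. Both were under the filter's minimum in GFP-AGO2 replicate 1, so that Control alone admitted them to the test. The 19 names took 0.369% to 0.499% of the counts in Control, and 0.0372% and 0.172% in GFP-AGO2 replicates 1 and 3. The vessel marker miR-126a was listed at 0 for both arms, as was miR-142-3p of blood cells. These names overlap another name of the table, so their zeros are not a sign of absence. MiR-143-3p of smooth muscle had 4433 and 3346 CPM in Control and 266 and 1324 in GFP-AGO2, and did not pass the test (log2 fold change -2.29, SE 0.74, edgeR adjusted p = 0.0637). MiR-146a-5p, an immune-regulated miRNA, fell by 2.17 on the log2 scale (SE 0.53, edgeR adjusted p = 0.0281). With either Control library left out, 1 name of this list was called lower, and miR-146a-5p had log2 fold changes of -2.02 and -2.33 (edgeR adjusted p = 0.0869 and 0.0573). Without GFP-AGO2 replicates 1 and 3 miR-146a-5p had -1.57 and -3.18, and miR-143-3p -1.56 and -3.87. DESeq2 called miR-143-3p lower (-2.32, adjusted p = 0.0454), as did edgeR without a filter (-2.07) or with a replicate block (-2.69). Without GFP-AGO2 replicates 1 and 3 the median was -1.79 and -3.02.

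Calls in the neuronal list went in both directions. Of 22 names of neuron-enriched miRNAs 19 were tested, 3 rose and 1 fell, with a median of 0.22, where 17.3% of all tested names rose and 17.1% fell. Scaled to totals outside the miR-200 family and miR-183 cluster, 2 rose and 3 fell (median 0.0955), and with the filter at 50 counts 3 rose and 3 fell (0.0897). With names of several positions left out, 1 of 11 rose and 1 fell (0.53). The list's share of all counts was 1.91% to 2.09% for Control and 2.34% to 2.56% for GFP-AGO2. A share also goes up where other names take less of the total, as the miR-200 family and miR-183 cluster did in GFP-AGO2. These neuronal shares therefore do not show a rise of the list, and shares of a total without those sets were not computed. MiR-124-3p, the most abundant of them and typical of neurons, had 5613 and 7273 CPM in Control and 6303 and 5271 in GFP-AGO2. MiR-9-3p of neural progenitors and neurons rose by 1.07 on the log2 scale (SE 0.26, edgeR adjusted p = 0.0281). Both of these have several genomic positions and so an uncertain origin. MiR-9-3p was not called without Control replicate 1 (0.80, edgeR adjusted p = 0.0906). Without Control replicates 1 and 3, 0 and 2 neuronal names were called higher and none lower, and without GFP-AGO2 replicate 1, 3 were called in each direction. Of the 6 astrocyte-related names (miR-204, miR-211 and miR-29a) 4 were tested, with a median of 0.05, and 1 rose, miR-204-5p, by 0.74 (SE 0.14). It had 0.84 and 0.65 without Control replicates 1 and 3 (edgeR adjusted p = 0.0885 and 0.136). All 9 oligodendrocyte names overlap another name of the table, 8 of them were listed at 0, and none was tested. The part of any of these cell types in the lower miR-200 counts was not tested.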

How the data were processed

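The authors deposited a table of raw counts for each mature miRNA. Per the file headers, featureCounts (v1.4.6-p1) counted primary alignments against miRBase names for mm10, with no option for strand. Cutadapt and STAR are named in the submitters' processing notes without versions. Columns were tied to samples by title. Totals were 673916 to 2809758 counts a library. Intervals cover counting error only, since PCR copies count as separate reads.

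Changes were tested on all names with edgeR 4.0.16 in R 4.3.3 (quasi-likelihood, TMM scaling, filterByExpr at a minimum count of 10, which left 457 of 1900 names; two-sided, Benjamini-Hochberg over all tested names, called at an adjusted p under 0.05). Fold changes are GFP-AGO2 over Control. SEs were derived from the fit's F statistic. Shares and ratios used exact permutation tests, and shares Clopper-Pearson intervals. The edgeR step was tested on simulated data. Profiles used log2 CPM with a pseudocount of 0.5. Members, lists and tests were chosen with earlier results of these data known. The names given were all 10 arms, the 5 nearest profiles outside the family and the 2 most abundant tested names of each cell-type list. Names sharing a 3p seed were to be given too, and there were none. MiR-182-3p, miR-451a and miR-145a-3p were added because Control alone admitted them to the test. Coordinates are mm10, which is the GRCm38 build of the GENCODE M21 and RefSeq tables used. Alternatives were RLE scaling, total counts, totals outside the miR-200 family and miR-183 cluster, DESeq2 1.42.0, other filters, a replicate block and leaving out libraries, with the 457 names kept.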

Additional observations from a re-analysis of the deposited data

How the results depend on the processing

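Under all 12 alternatives every tested arm of the family stayed below Control. Where all 4 libraries were kept, the 7 arms that met the filter in both groups were called under every alternative. MiR-141-5p, which Control alone admitted to the test, was called there too, except with the filter at 50 counts, which removed it. Its log2 fold change was -2.54 without Control replicate 1. With the main settings 17.1% of all tested names were called lower. Total counts alone moved the median of all names by 0.22, totals outside the miR-200 family and miR-183 cluster by -0.12. The median of the 8 tested arms was -2.75 (-2.76 without miR-141-5p), and -2.52 and -2.85 under these, and -2.76 with RLE scaling. When libraries were left out it lay between -3.31 and -2.49, the values lacking GFP-AGO2 replicates 3 and 1. Over all names, leaving out a library gave 47 to 94 rises and 43 to 106 falls against 79 and 78, the lowest without Control replicate 1. Without Control replicate 3 there were 49 rises. Total counts alone called 100 higher and 66 lower, a 60.2% share of rises against 50.3%. The cause was not tested. The share difference was -10.3 to -8.91 points when libraries were left out. It was -11.1 with the miR-183 cluster and -14.4 with names of several positions left out of the total. The cluster ratio difference ran from -0.196 to 0.0199 and the seed ratio difference from -0.0150 to 0.0414, changing sign without GFP-AGO2 replicate 3 (0.0199 and -0.0150) and, for the seed groups, without Control replicate 1 (-0.00400). The 3p to 5p difference of miR-200b was -0.00755 without Control replicate 1. Leaving out GFP-AGO2 replicate 1 gave -0.0567 for miR-200b and 0.371 for miR-141, and leaving out replicate 3 gave 0.136 and -0.779. Whether the replicate numbers pair the libraries is not known. Same-numbered libraries deviated together with r = -0.05 over 457 names, which cannot settle it with only replicates 1 and 3 in each group. With the replicate block 79 names rose and 85 fell, the 7 arms and miR-141-5p were called, and the family median was -2.83. Counts of 0 to 2 limit miR-200c-5p and miR-429-5p.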
